A study of Homo sapiens with 16 samples.

Results

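The HOX genes are the 39 protein-coding genes of the 4 clusters HOXA, HOXB, HOXC and HOXD, and they were taken from a table of 69222 gene rows by their symbols alone, with no use of measured values. They were read in SH-SY5Y, an established human neuroblastoma line, itself a cloned subline, that takes on a neuron-like form when differentiated. Polyadenylated RNA was sequenced from 16 libraries in 8 groups of 2. On culture plates there was 1 group of untreated cells and 1 of differentiated cells. Conductive films carried the remaining 6 groups, all differentiated, with and without electrical stimulation (ES) on each of 3 materials: ITO, which is indium tin oxide, P(rGO), which combines a polymer with reduced graphene oxide, and PEDOT:PSS, which pairs the conducting polymer PEDOT with the polyanion PSS. All 7 differentiated groups had serum lowered in steps between days 2 and 5, to 5%, 2.5% and finally 1%. Overlapping with these steps, they had 10 µM retinoic acid from day 3 to day 6 and 50 ng/mL BDNF, a neurotrophin, for the 4 days after. Stimulation was a square wave of 0.1 V at 1 Hz for 8 h per day during the BDNF days. Per the labels the films had been coated with laminin and poly-L-lysine, and no coating is named for plates, so film and coat cannot be told apart. Nothing says that the replicates were separate cultures, and the p-values cover the spread between these libraries only, which may be technical.

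HOX genes encode homeodomain transcription factors that give cells their position along the head-to-tail axis of the embryo. Each cluster is numbered from genes of the anterior end, 1, to those of the posterior end, 13, and genes with the same number in different clusters are paralogues. In the nervous system they pattern the hindbrain, the spinal cord and the neural crest, the source of the sympathetic lineage from which neuroblastoma arises. Retinoic acid is a classical inducer of HOX genes, acting first on the anterior end of a cluster, and Polycomb complexes hold silent clusters shut. HOX proteins bind DNA with PBX, MEIS and PKNOX proteins, which are called TALE cofactors.

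Promoter sequences of 20 of the 39 genes were found in RefSeq (GRCh38.p14), as 26 distinct windows of the 250 bases before a start. Of these, 4 are shown, without the 15 bases next to the start, to set genes that gave next to no reads beside genes that were read in every library. HOXA13 and HOXB1 gave no read, HOXD8 was among the highest members, and HOXD13 had the largest fall of the 12 tested members. Capitals mark CpG dinucleotides, the sites of DNA methylation, and no annotated exon of GENCODE 29 overlaps these stretches, each 235 bases long. Their places are chr7:27200107-27200341 for HOXA13 and chr17:48531027-48531261 for HOXB1, both on the minus strand, and chr2:176129455-176129689 for HOXD8 and chr2:176092471-176092705 for HOXD13, both on the plus strand.
HOXA13: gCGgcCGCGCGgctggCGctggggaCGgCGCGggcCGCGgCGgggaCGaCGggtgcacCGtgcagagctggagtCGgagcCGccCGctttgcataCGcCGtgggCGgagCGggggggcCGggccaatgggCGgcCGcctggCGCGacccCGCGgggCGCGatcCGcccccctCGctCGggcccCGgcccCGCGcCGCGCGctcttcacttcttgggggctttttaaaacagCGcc
HOXB1: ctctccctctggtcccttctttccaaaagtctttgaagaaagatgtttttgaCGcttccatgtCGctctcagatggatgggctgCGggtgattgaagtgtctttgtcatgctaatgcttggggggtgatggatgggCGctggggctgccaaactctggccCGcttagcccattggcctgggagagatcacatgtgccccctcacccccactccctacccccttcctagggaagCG
HOXD8: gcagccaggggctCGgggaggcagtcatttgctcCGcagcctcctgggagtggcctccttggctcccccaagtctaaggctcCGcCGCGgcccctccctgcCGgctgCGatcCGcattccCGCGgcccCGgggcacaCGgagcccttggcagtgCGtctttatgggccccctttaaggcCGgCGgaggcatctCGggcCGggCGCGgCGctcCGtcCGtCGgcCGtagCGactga
HOXD13: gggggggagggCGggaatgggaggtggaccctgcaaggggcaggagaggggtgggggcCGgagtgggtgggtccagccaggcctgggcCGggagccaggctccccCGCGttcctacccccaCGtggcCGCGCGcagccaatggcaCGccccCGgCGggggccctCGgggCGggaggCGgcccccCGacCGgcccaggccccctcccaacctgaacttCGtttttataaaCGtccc
The HOXA13 stretch holds 40 CpG sites, HOXD8 25, HOXD13 19 and HOXB1 6. Over whole windows the median was 19 CpG sites (0 to 40) in 17 windows of HOXA and HOXB and 21 (4 to 31) in 9 windows of HOXC and HOXD, against 11 in all 34788 RefSeq windows. The ranges overlapped, but HOXB is represented by 1 window, that of HOXB1, HOXA3 alone gives 7, and the HOXC and HOXD windows include those of the low members HOXD11 and HOXD12. The retinoic acid receptor half-site AGGTCA, searched on both strands, was in none of the 26 HOX windows and in 12.0% of all windows. Its direct repeats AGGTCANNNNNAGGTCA and AGGTCANNAGGTCA, which contain it, were also in none of the HOX windows and in 0.0029% of all windows each. The PBX-HOX motif TGATTNAT was found in the windows of HOXA2 and HOXD11 and in 2.48% of all windows. TATAAA was found in windows of HOXA3, HOXA9, HOXA10 and HOXD13 and in 10.8% of all windows. A match is only a run of letters, and an absent match says nothing of sites outside the window or of sites with other letters. Some windows, such as those of HOXC4 and HOXD4, lie wholly in annotated exons.

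Each library had 15600410 to 20851000 reads counted in genes, and 18081 genes had enough of them to be tested. The 2 untreated libraries differed from each other more than the replicates of any other group: the chi-square of their counts over its degrees of freedom was 91.1, against 5.65 to 39.3 in the other 7 groups, and in no group did the libraries agree within sampling noise. The cells carried the markers of adrenergic neuroblastoma: 10 of 10 were read in every library, with summed levels of 5880 to 6683 reads per 1e6 reads in genes (CPM) in untreated cells, 4677 to 4812 on differentiated plates and 3274 to 4019 on films. Of 11 mesenchymal and fibroblast markers, PRRX1 was at 0 in nearly all libraries, and the sum was 1109 to 1479 CPM in untreated cells and 337 to 552 CPM in all others. Of 8 Schwann and glial markers, SOX10 and FOXD3 were at 0 in every library, and the sum was 3.90 to 14.5 CPM. The adrenergic and mesenchymal sums were lower in every differentiated library than in both untreated libraries, while the glial sums overlapped, and their part in the results below was not tested.

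The HOXA and HOXB clusters were not read as expressed in any condition. The 11 HOXA members and 10 HOXB members together gave 5 reads among the 292376714 reads counted in genes over all 16 libraries. HOXA3, HOXB2, HOXB7, HOXB8 and HOXB9 had 1 read each, and the other 16 had none. A count of 0 over all libraries allows a level of up to 0.0103 CPM (3 counts), and that limit covers counting error only. Within a single group the limit is higher, as fewer reads were counted there. No group, untreated or differentiated, had more than single reads of these clusters, which include HOXB1, an anterior member that retinoic acid induces in many stem cell systems. Sharing of sequence with other loci was low. At least 98.4% of the 50-base stretches of every member's transcripts occur at no annotated gene elsewhere, with a median of 100%. Genes that overlap the member itself were not counted there. In HOXA and HOXB they cover up to 31.0% of exon bases on the same strand (HOXA4) and up to 62.5% on the other (HOXA7). Reads in such bases may be left out as ambiguous. The noncoding RNAs of both clusters were next to unread as well: of 10 listed, 9 had no read, and HOTAIRM1, transcribed from the anterior end of HOXA, was above 0 in 1 library. SKAP2, which flanks the anterior end of HOXA, was read at 3.15 to 10.1 CPM, and HIBADH, beyond its posterior end, at 30.4 to 61.2 CPM. SKAP1, which flanks HOXB, was at 0 CPM in every library.

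**Figure D1:**
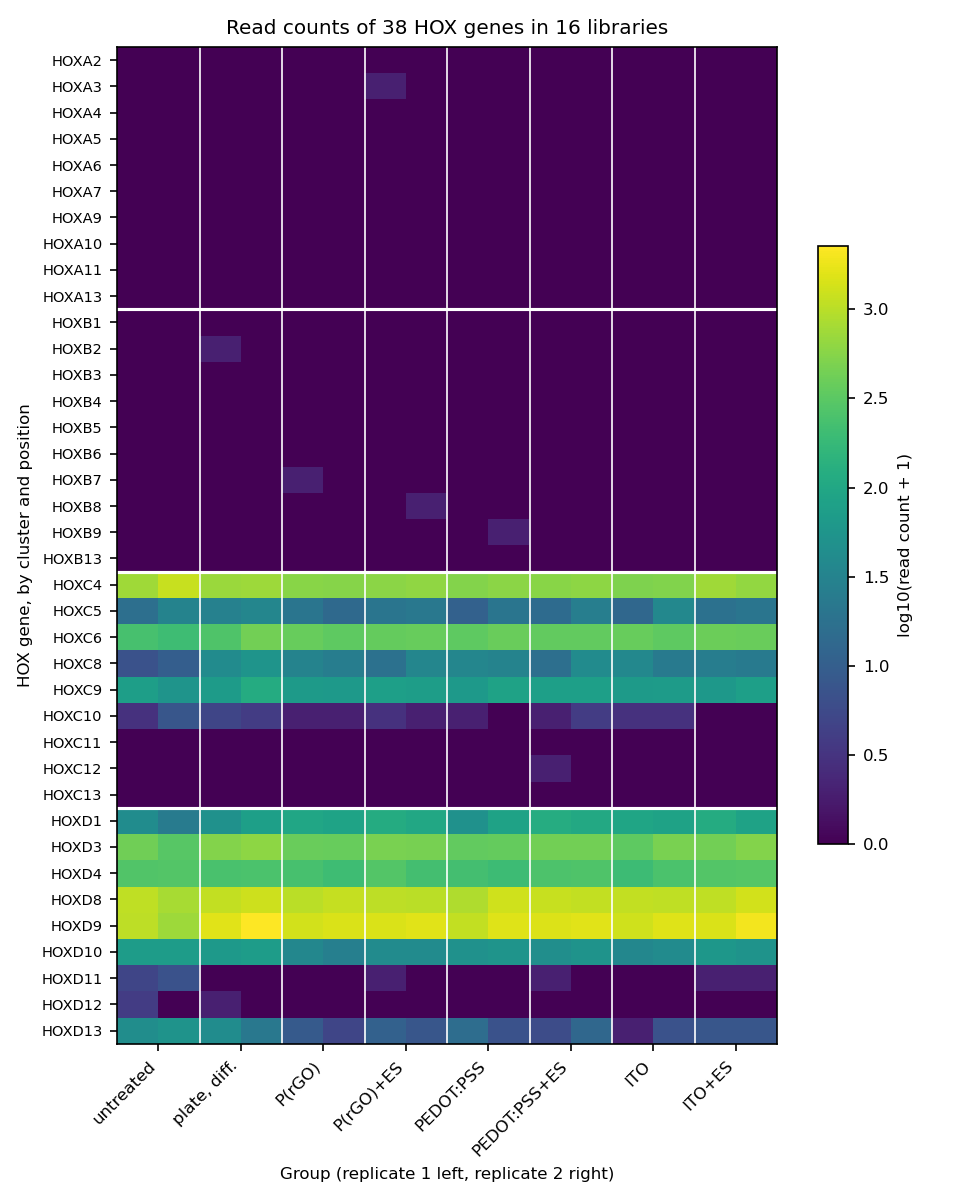
Read counts of 38 of the 39 HOX genes (rows, by cluster and position number) in 16 libraries (columns, 8 groups with replicate 1 left and replicate 2 right), as log10 of the count plus 1. HOXA and HOXB are dark apart from 5 single reads, and most reads lie in HOXC4 to HOXC9, in HOXD1 to HOXD10 and in HOXD13, with few in HOXC10, HOXC12, HOXD11 and HOXD12.

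HOXC and HOXD were both transcribed in every library. The 9 HOXC members gave 17879 reads, 973 to 1497 per library, and the 9 HOXD members 54155 reads, 2281 to 4528 per library. HOXC11 and HOXC13 had no read, HOXC12 had 1, and 5 HOXC members and 7 HOXD members had at least 100 reads. In all, 12 members were tested, HOXC4, HOXC5, HOXC6, HOXC8, HOXC9, HOXD1, HOXD3, HOXD4, HOXD8, HOXD9, HOXD10 and HOXD13, and 27 were too low. Of the 12, 10 were at the level of the filter, 0.551 CPM, in all 16 libraries. HOXC8 was under it in both untreated libraries, and HOXD13 reached it in both untreated and both plate libraries but in 2 of 12 film libraries. These 2 genes therefore passed through the groups in which they were high. Counts over tested members, and the ranks of these 2 among them, are a description.

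Per kilobase of annotated exon the genes spanned more than 2 orders of magnitude. HOXD9 was highest, with a median level of 43.6 CPM per kb (23.7 to 60.1 over the 16 libraries), followed by HOXD8 with 23.4 (18.7 to 26.3), neighbours that lie at chromosome 2 positions 176122720 to 176124937 and 176129694 to 176132695. HOXC4 had 12.0 CPM per kb (11.0 to 26.5), HOXD4 9.40 (7.32 to 11.9), HOXD3 6.66 (5.08 to 8.46) and HOXC6 5.38 (3.49 to 6.24), so the ranges of these neighbours overlapped. HOXD1 followed with 2.50 CPM per kb, HOXC9 with 2.36, HOXD10 with 0.959, HOXC8 with 0.827, HOXC5 with 0.560 and HOXD13 with 0.185. The order depends on the annotated exon lengths. Of HOXD4 exon bases 80.5%, and of HOXD3 exon bases 62.2%, lie in a read-through transcript of GENCODE 29 on the same strand. That transcript has no row in the deposited table, so no reads were listed for it, and full exon lengths were used for both genes. HOXC4 and HOXC6 share 484 exon bases and HOXD10 and HOXD11 share 452, and reads in those bases may be left out as ambiguous. HOXD3 shares 379 exon bases with HOXD-AS2 on the other strand. HOXC5 shares 1081 of its 1805 exon bases with another annotated transcript that is listed at 0 in every library, so its counts are uncertain.

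**Figure D2:**
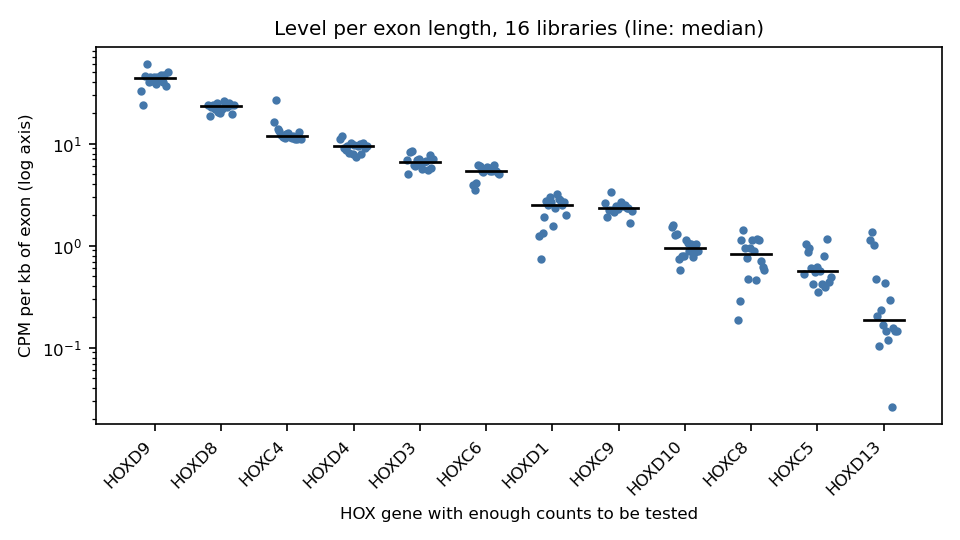
Level per kilobase of exon (CPM per kb, log axis) of the 12 tested HOX genes, 1 point per library and a line at the median of 16 libraries. HOXD9 and HOXD8 have the highest medians, and HOXD13 is lowest with the widest spread.

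Differentiation on plates was compared with untreated plates first, with edgeR's quasi-likelihood test and Benjamini-Hochberg adjustment over all tested genes, which is the source of every adjusted p given. HOXC8 and HOXD9 rose and HOXC4 fell, 3 of 12 tested members, while 29.6% of all tested genes were called in this comparison (13.8% higher and 15.8% lower). The share of members was thus near that of all genes. The median log2 fold change of the 12 members was 0.27, against -0.01 for all genes, and 8 of 12 were above 0.

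HOXC8, a gene of the brachial spinal cord on chromosome 12 from 54009106 to 54012362, was read at 0.355 and 0.545 CPM in the untreated libraries and at 2.17 and 2.70 CPM in the differentiated plate libraries. The groups did not overlap, and the log2 fold change was 2.42 (SE 0.52, adjusted p = 0.0042). The 12 film libraries lay between 0.863 and 2.18 CPM with a median of 1.56, all above the untreated libraries. These are bulk libraries, in which fewer cells of a type and less RNA per cell cannot be told apart. HOXC8 had 6 and 9 reads in the untreated libraries, so its fold change rests on few counts.

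HOXD9, a gene of the lumbar spinal cord and limb, was read at 61.2 and 44.4 CPM in untreated cells and at 85.1 and 112 CPM on differentiated plates. The level rose by a log2 fold change of 0.90 (SE 0.19, adjusted p = 0.0042). HOXC4, a cervical member on chromosome 12 from 54016931 to 54056030, went the other way, from 44.1 and 72.2 CPM to 38.3 and 36.1 CPM. Its log2 fold change was -0.64 (SE 0.19, adjusted p = 0.020), and the untreated libraries were far apart.

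The other 9 tested members were not called on plates. HOXC6, a brachial member, had a log2 fold change of 0.48 (adjusted p = 0.071), and HOXD3, an anterior member, had 0.47 (adjusted p = 0.074). HOXD1, the most anterior member that was read and a paralogue of the retinoic acid target HOXB1, had 42 and 24 reads in untreated cells and 48 and 76 on plates, with a log2 fold change of 0.70 (95% interval -0.0012 to 1.40, adjusted p = 0.12). HOXD13 had -0.76 (adjusted p = 0.30) and HOXD4, a hindbrain member, -0.38 (adjusted p = 0.16). HOXC5, HOXC9, HOXD8 and HOXD10 lay between -0.29 and 0.32. HOXC8 stayed called on plates without each of the 4 libraries in turn (log2 fold changes of 2.15 to 2.76). HOXC4 was not called without untreated replicate 2 (-0.24, adjusted p = 0.21), without plate replicate 1 (-0.69, adjusted p = 0.052) or without plate replicate 2 (-0.61, adjusted p = 0.13), and HOXD9 was not called without plate replicate 2 (0.68, adjusted p = 0.063). In a fit of these 4 libraries alone none of the 3 was called, with an adjusted p of 0.083 for HOXC8, 0.14 for HOXD9 and 0.26 for HOXC4.

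Differentiation on films was compared with untreated plates as the mean of the 6 film groups. HOXC6, HOXC8, HOXD1 and HOXD9 rose and HOXC4, HOXD10 and HOXD13 fell, 7 of 12 tested members, while 47.9% of all tested genes were called (21.9% higher and 26% lower). The untreated libraries are the same as in the plate comparison, so both are given side by side and not as separate evidence. By position, 1 of 2 tested anterior members (1 to 3) rose, 2 of 6 central members (4 to 8) rose and 1 fell, and 1 of 4 posterior members (9 to 13) rose and 2 fell. The median over the 12 members was 0.06 on the log2 scale, against 0.00 for all genes.

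HOXD13, the most posterior gene of its cluster and a gene of the digits and genitalia, changed most among the 12 tested members. Members low in every group could not enter this ranking. HOXD13 passed the filter through the plate libraries and reached its level in 2 of 12 film libraries, so its rank is a description. Its level was 2.54 and 3.09 CPM in untreated cells and 2.28 and 1.05 CPM on differentiated plates. On P(rGO) it was 0.458 and 0.232 CPM without and 0.523 and 0.372 CPM with stimulation. On PEDOT:PSS it was 0.957 and 0.325 CPM without and 0.270 and 0.654 CPM with stimulation, and on ITO 0.0592 and 0.349 CPM without and 0.329 and 0.329 CPM with stimulation. All 12 film libraries were below all 4 plate libraries, treated or not. Films differed from untreated plates by a log2 fold change of -2.86 (SE 0.39, adjusted p = 5.2e-05), from 43 and 51 reads in untreated libraries to between 1 and 15 in film libraries. HOXD13 kept this call in each of the 19 alternatives run, with log2 fold changes of -3.15 to -2.71.

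HOXD11 and HOXD12, next to HOXD13, were too low to test, and most of their few reads lay in untreated cells. HOXD11, another posterior limb gene, had 4 and 6 reads in untreated libraries, none on differentiated plates and 4 in the 12 film libraries together, a ratio of untreated to films of 14.7 per read in genes (95% counting interval 4.24 to 64.1). HOXD12 had 3 reads in untreated replicate 1, 1 on plates and none on films. HOXC10 had 2 and 7 reads in the untreated libraries, 4 and 3 on plates and 14 in the 12 film libraries together. The interval for HOXD11 covers counting error and not replicate error.

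HOXD10, a lumbar motor neuron gene, was read at 4.14 and 4.30 CPM in untreated cells, 3.42 and 3.50 CPM on differentiated plates and 1.56 to 3.06 CPM (median 2.35) on films. The film libraries lay below all 4 plate libraries, and the log2 fold change from untreated plates was -0.85 (SE 0.18, adjusted p = 0.0018). HOXC4 was at 29.9 to 35.3 CPM (median 31.7) on films, below both untreated libraries, with a log2 fold change of -0.86 (SE 0.13, adjusted p = 0.00014). Without untreated replicate 2 the HOXC4 value was -0.45 and still called (adjusted p = 0.0059).

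HOXD1 was at the other end of the HOXD cluster, on chromosome 2 from 176188579 to 176190907, and it rose. Its level was 2.48 and 1.45 CPM in untreated cells, 2.61 and 3.79 CPM on differentiated plates and 3.06 to 6.36 CPM (median 5.31) on films, all above the untreated libraries. Its log2 fold change from untreated plates was 1.35 (SE 0.27, adjusted p = 0.0010). HAGLR, the antisense RNA that starts beside HOXD1 and shares 158 exon bases with it on the other strand, was also higher on films, with a log2 fold change of 0.95 (SE 0.20, adjusted p = 0.0013). Altogether 58.1% of HOXD1 exon bases lie in genes on the other strand, 989 of them in AC009336.3, which had 4 reads over all libraries. No source used here says whether strand was used in counting. Without it, reads in those bases may be left out as ambiguous.

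HOXC6 was read at 13.8 and 12.3 CPM in untreated cells and at 18.0 to 22.1 CPM (median 19.2) on films, without overlap, with a log2 fold change of 0.59 (SE 0.15, adjusted p = 0.0054). On differentiated plates HOXC6 had 268 and 438 reads, and replicate 1 stood at 14.5 CPM, near the untreated libraries. HOXC8 was higher on films by 1.74 (SE 0.45, adjusted p = 0.0057). HOXD9 was at 68.9 to 93.5 CPM (median 81.5) on films, above both untreated libraries, with a log2 fold change of 0.61 (SE 0.15, adjusted p = 0.0049). Without untreated replicate 2 HOXD9 stood at 0.41 and was not called (adjusted p = 0.081). HOXD8, the neighbour of HOXD9, was not called: it was read at 63.3 and 49.1 CPM in untreated cells, 59.8 and 62.6 CPM on plates and 51.0 to 69.1 CPM on films, with a log2 fold change of 0.10 (95% interval -0.15 to 0.35, adjusted p = 0.51). HOXD3 (0.10), HOXC9 (0.03), HOXC5 (-0.48) and HOXD4 (-0.35, adjusted p = 0.063) were not called either. HOXD4 was read at 16.3 and 17.4 CPM in untreated cells, 13.2 and 12.7 CPM on plates and 10.7 to 14.9 CPM on films. HOXD3 was read at 24.6 and 18.0 CPM in untreated cells, 29.1 and 30.0 CPM on plates and 19.8 to 27.6 CPM on films, so its plate libraries were the highest.

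**Figure D3:**
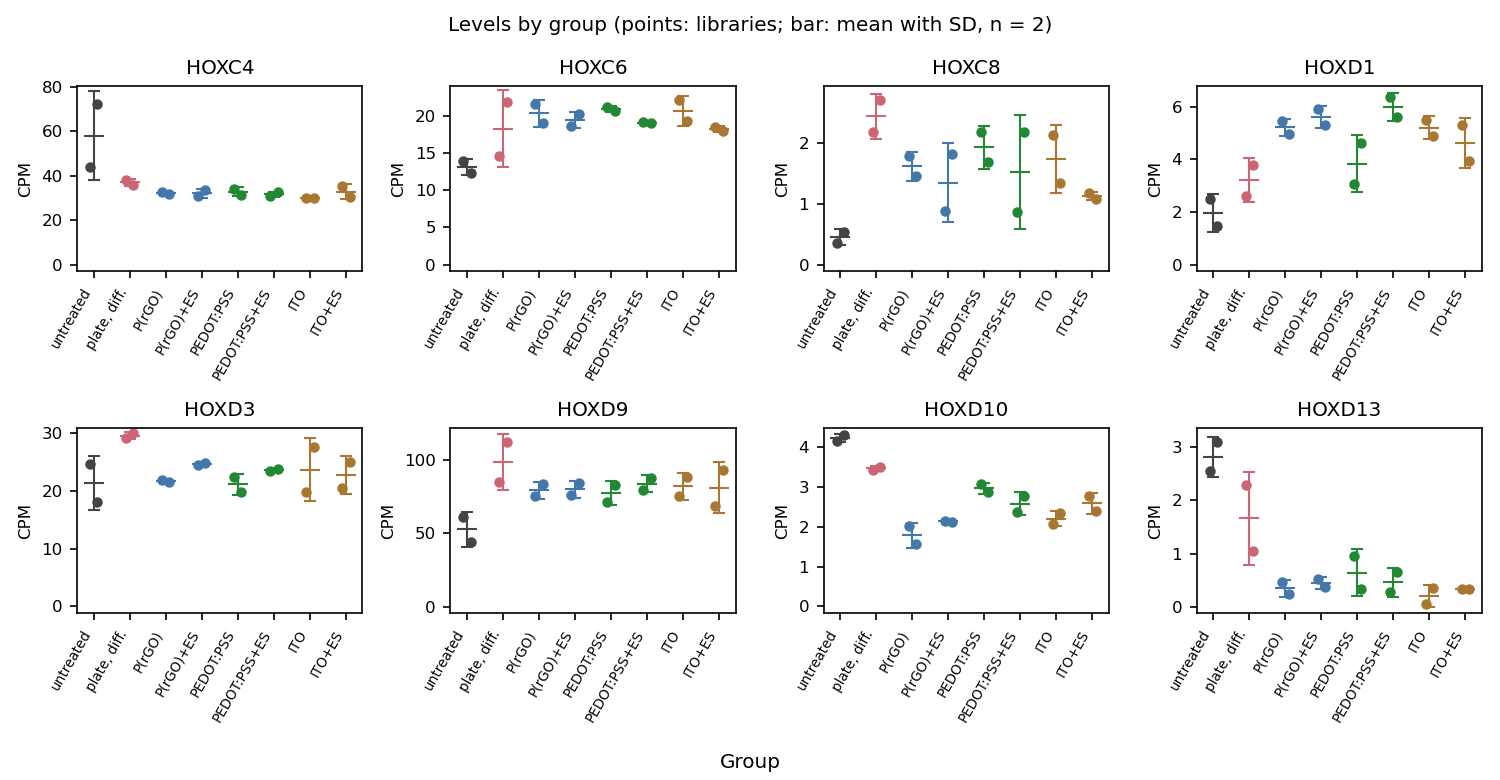
CPM of 8 HOX genes by group, with 1 point per library, a bar at the mean and its SD (n = 2 per group). HOXC8 is lowest in untreated cells, HOXD1 is highest on films, and HOXD13 falls from 2.54 and 3.09 CPM in untreated cells to under 1 CPM in every film library.

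**Figure D4:**
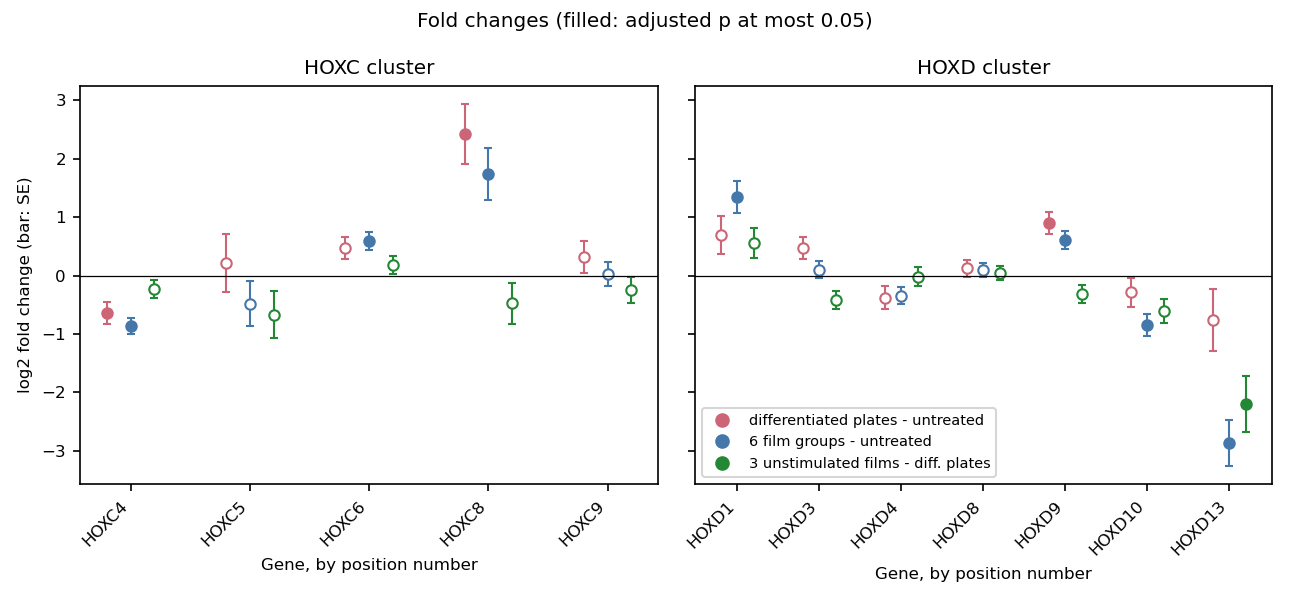
Log2 fold changes with SE (y axis) of the 12 tested genes in HOXC and HOXD (x axis, by position number), for differentiated plates against untreated, the mean of 6 film groups against untreated and the mean of 3 unstimulated films against differentiated plates. Filled points have an adjusted p of at most 0.05, and for films against untreated HOXD1 and HOXD9 are filled above 0 and HOXD10 and HOXD13 below 0.

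The unstimulated films were then compared with differentiated plates, which asks how the coated films differ from plates. Over the mean of the 3 films HOXD13 fell and no other member was called, 1 of 12, while 8.25% of all tested genes were called (4.46% higher and 3.79% lower). HOXD13 fell by 2.20 on the log2 scale (SE 0.48, adjusted p = 0.013), from a mean of 1.66 CPM on plates to 0.397 CPM. HOXD10 had a log2 fold change of -0.61 (SE 0.20, adjusted p = 0.081) and HOXD3 had -0.42 (SE 0.15, adjusted p = 0.11), and neither was called. Of the 12 members 3 were above 0 and 9 below, and their median was -0.28, against -0.03 for all genes. The HOXD13 call rested on plate replicate 1, at 2.28 CPM: without it the value was -1.54 (adjusted p = 0.33).

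Film by film, ITO was the only film on which edgeR called a member. HOXD13 fell there by 2.97 (SE 0.71, adjusted p = 0.032), while 4.23% of all genes were called on ITO (2.5% higher and 1.73% lower). The HOXD13 call on ITO was lost without plate replicate 1 (-2.32, adjusted p = 0.30), ITO replicate 1 (-2.22, adjusted p = 0.24) or ITO replicate 2 (-4.66, adjusted p = 0.074), and in a fit of the 4 libraries alone (adjusted p = 0.079). On P(rGO) 4.63% of genes were called (2.99% higher and 1.64% lower), and edgeR called 0 members. An unadjusted p under 0.05 was found for 4 members and for 3531 of the 18081 tested genes. DESeq2 called 1 member and 1408 genes in all. HOXD13 stood at -2.24 (SE 0.66, adjusted p = 0.068) and HOXD10 at -0.95 (SE 0.26, adjusted p = 0.053) on that film. On PEDOT:PSS 1.48% of genes were called (1.02% higher and 0.454% lower), and both tools called 0 members. An unadjusted p under 0.05 was found there for 2 members and for 2495 of all tested genes. HOXD13 stood at -1.39 (SE 0.61, adjusted p = 0.32) on that film.

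The test of a difference between the 3 unstimulated films called 0 members and 0% of all tested genes. HOXD10 was the 1 member with an unadjusted p under 0.05 in edgeR's F test (adjusted p = 1), with 2.00 and 1.56 CPM on P(rGO), 3.06 and 2.87 CPM on PEDOT:PSS and 2.07 and 2.33 CPM on ITO. Of all tested genes 239 had such an unadjusted p. For HOXD13 that test gave an adjusted p of 1, so the call on ITO alone does not show that its fall differed between films.

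Stimulation was compared with no stimulation on each film and over the mean of the 3 films. No member was called in any of these 4 comparisons by edgeR or DESeq2, no member had an unadjusted p under 0.05, and edgeR called 0% of all tested genes. At an unadjusted p under 0.05 there were 986 genes on P(rGO), 126 on PEDOT:PSS, 293 on ITO and 1021 over the mean. Over the mean of the films the 12 members lay between -0.40 for HOXC8 (95% interval -0.97 to 0.16) and 0.20 for HOXD13 (-0.74 to 1.13). For the well-read members the intervals were narrow: HOXD9 had 0.04 (-0.20 to 0.27), HOXC4 0.02 (-0.21 to 0.26), HOXD3 0.10 (-0.14 to 0.33), HOXD4 0.09 (-0.15 to 0.33), HOXC6 -0.13 (-0.36 to 0.10) and HOXD8 -0.15 (-0.33 to 0.04).

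HOXD1 on PEDOT:PSS had the smallest unadjusted p of any member under stimulation, with an adjusted p of 1. It was read at 3.06 and 4.60 CPM without and 6.36 and 5.61 CPM with stimulation, without overlap, a log2 fold change of 0.64 (95% interval -0.01 to 1.29). On P(rGO) HOXD1 stood at 0.11 (-0.53 to 0.75) and on ITO at -0.17 (-0.81 to 0.47). The test of a difference in the stimulation effect between films called 0 members by edgeR, and none had an unadjusted p under 0.05.

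**Figure D5:**
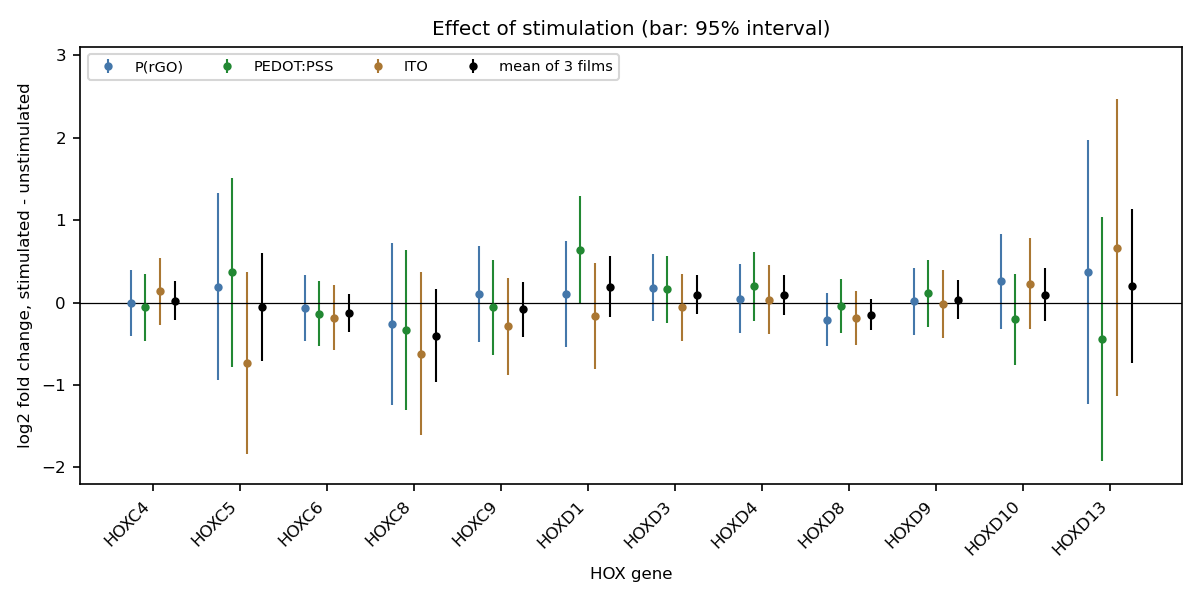
Log2 fold change of stimulated against unstimulated cells (y axis, bars are 95% intervals) for the 12 tested HOX genes on each film and over the mean of the 3 films. The intervals of all 12 genes over the mean include 0, and those of HOXC5, HOXC8 and HOXD13, which had few reads, are the widest.

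Of the 9 TALE cofactors of HOX proteins, 8 were tested. Of these, 1 rose and 2 fell on differentiated plates against untreated, where 29.6% of all tested genes were called: MEIS3 rose by a log2 fold change of 0.51 (SE 0.15, adjusted p = 0.023), and PKNOX1 (-0.47, adjusted p = 0.013) and MEIS1 (-0.55, adjusted p = 0.038) fell. Their median was -0.38, against -0.01 for all genes. On films against untreated, where 47.9% of all tested genes were called, 1 rose and 3 fell (median -0.33), among them MEIS3 (0.69), PKNOX1 (-0.53) and PKNOX2 (-2.24, from 1.02 to 0.220 CPM).

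Of the 18 noncoding RNAs listed in the clusters, 3 were tested. HAGLR was read at 32.9 and 16.3 CPM in untreated cells, 35.0 and 48.3 CPM on plates and 43.7 to 52.7 CPM on films, and it rose on plates as well (0.76, SE 0.24, adjusted p = 0.029). HOXC-AS1, antisense in the HOXC cluster, fell on films, by 1.57 against untreated (SE 0.43, adjusted p = 0.0085) and by 1.96 against differentiated plates (SE 0.48, adjusted p = 0.022), from a mean of 1.04 CPM on plates to 0.274 CPM on the unstimulated films. HOXD-AS2 was not called in any comparison of films, plates or stimulation. Of the 8 related ParaHox and EVX homeobox genes only EVX2, the neighbour of HOXD13, was tested, and it was not called.

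Polycomb and retinoic acid genes were listed for their known roles at HOX clusters, and the median log2 fold change of all genes was -0.01 on plates and 0.00 on films against untreated cells. The shares of all tested genes called, 29.6% on plates and 47.9% on films, stand beside the counts that follow, and nothing particular to a list is read from them. Of the 11 members of Polycomb repressive complex 2, which places the H3K27 methyl mark, 3 fell and none rose on plates, with a median of -0.40: EZH2, its catalytic subunit, fell by 0.98 (SE 0.19, adjusted p = 0.0021), AEBP2 by 0.75 and RBBP4 by 0.40. On films 5 fell and 1 rose (median -0.38), and EZH2 stood at -1.23 (SE 0.13, adjusted p = 5.0e-06). Of 16 tested members of Polycomb repressive complex 1, 1 rose and 2 fell on plates (median -0.13) and 2 rose and 4 fell on films (median -0.09), with PCGF5 (-1.33) and PCGF1 (-1.58) lower and CBX7 (0.82) higher on plates. Of 12 Trithorax and H3K27 demethylase genes, 0 were called on plates (median -0.01) and 2 fell on films (median -0.14), WDR5 (-0.53) and PSIP1 (-0.36). Of 10 tested retinoic acid genes, 5 rose and 3 fell on plates (median 1.00) and 5 rose and 3 fell on films (median 1.10): the retinoid-responsive DHRS3 rose by 4.64 (SE 0.45, adjusted p = 2.7e-05), RARB by 1.99 and CRABP2 by 2.79 on plates, and RXRA stood at -2.25 on films. No gene of the Polycomb, Trithorax, retinoic acid or flanking lists was called between the 3 unstimulated films and plates, and none was called under stimulation. Of 6 tested genes that flank the clusters, SKAP2 rose (0.97, adjusted p = 0.014) and HIBADH fell (-0.58, adjusted p = 0.022) on plates.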

How the data were processed

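The deposited table holds raw counts of reads per gene, 1 column per library, with 5 summary rows that were left out. Per the submitters' processing notes the authors used STAR and HTSeq with the builds GRCh38.p13 and hg38, and versions, annotation and strand setting are not given in the sources used here. Libraries came from a directional kit, per the labels' protocols. Reads without a gene were 5.58% to 10.0% and ambiguous ones 4.73% to 5.34% of uniquely placed reads. A symbol was matched for 62686 of 69222 row IDs, and all 39 HOX symbols were found. All columns were mapped to a sample.

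In R 4.3.3, edgeR 4.0.16 kept 18081 genes by its default filter, scaled libraries by the trimmed mean of M values and fitted 1 mean per group over all 16 libraries with a robust quasi-likelihood model (8 residual degrees of freedom). A gene was called when its Benjamini-Hochberg adjusted p was 0.05 or less, and SE is the log2 fold change over the root of F. Levels are CPM on scaled library sizes. Positions, exon lengths and overlaps are from GENCODE 29 (GRCh38), promoters from RefSeq. The model was also run on simulated counts in which only well-read genes were changed, and no call above rests on it. The median SE of a log2 fold change was 0.26 for differentiated against untreated plates and 0.15 for stimulation averaged over films.

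Values in every library were given for members called in a main comparison or with at least 5 CPM in 1 group, with film libraries as lowest, median and highest, and up to 3 called genes with the smallest p were named per list. Membership was set by symbol alone, but the members, lists and rules were fixed with earlier results of these data known. No p is therefore adjusted over a list. Alternatives were relative log expression scaling, a replicate block, no filter, a fit restricted to the compared groups, DESeq2 1.42.0, leaving out each library, and, added after seeing the data, leaving out the untreated libraries. Values of some single genes are not reported here.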

Additional observations from a re-analysis of the deposited data

How the results depend on the processing

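The alternatives gave 184 values for the 12 calls of the main fit alone, so no value could gain a call. Of these, 171 kept direction and call, 13 kept the direction and lost the call, and 0 changed sign. Most values belong to the 7 calls of films against untreated, with 19 alternatives each. Calls were lost for HOXC4, HOXC8 and HOXD9 on plates and HOXD9 on films against untreated. They were also lost for HOXD13 on ITO and over the mean of 3 films, both against plates. For differentiated against untreated plates 3 members were called, 0 in a fit of only those groups and 1 to 6 when each library was left out, where all genes called ran from 1802 to 7933. For films against untreated plates 7 were called, and 6 to 8 without each library. For P(rGO) against plates 0 were called, 1 with no filter on low counts, 1 with DESeq2, 0 to 1 without each library and 2 without the untreated libraries. For ITO against plates 1 was called, 0 in a fit of only those groups and 0 to 1 without each library. For the mean of 3 films against plates 1 was called, 0 to 1 without each library and 2 without the untreated libraries. For PEDOT:PSS against plates and for every comparison of stimulation or between films, 0 members were called under all alternatives run. Where leaving out a library left a group with 1 sample, that sample was assumed to vary like the other groups. With the replicate number as a block the counts of members called were 3 for plates, 7 for films against untreated, 0 for P(rGO), 0 for PEDOT:PSS, 1 for ITO and 1 for the mean of films, as without the block. The labels prefix every replicate 1 with NB33 and every replicate 2 with NB34, with no meaning given. Over 28 pairs of groups the correlation of the deviations of same-numbered libraries ran from -0.19 to 0.29 (median 0.11) and was over 0.1 in 16. Whether same-numbered libraries share a source is not given, and the main fit treated them as unpaired. Depth limits HOXD13, with 1 to 51 reads per library, and the 27 members that were not tested.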
